A study of Mus musculus with 111 samples.

Results

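RNA-seq was performed on the tuberomammillary nucleus (TMN) of mice that carried an adeno-associated virus (AAV) expressing wild-type histone H3.3, with tissue taken at 6 zeitgeber times (ZT) through the day. ZT0 is lights on and ZT12 is lights off. Every library whose labels gave the virus H3.3 was taken, which gave 39 of the 111 libraries in the series. The animals were C57BL/6 mice (C57BL/6J in the study's methods), bought as young adults of both sexes and kept in equal spans of light and dark. Each library came from 1 animal, and the infected TMN was dissected some weeks after the virus was infused on both sides. The virus expressed an epitope-tagged H3.3 together with GFP from 1 transcript, and the share of dissected cells that it reached was not measured here. The comparison viruses expressed GFP alone (32 libraries) or H3.3 with the Q5A mutation, in which the glutamine that carries monoamines is replaced by alanine (39 libraries). The 39 hold 1 pair of Q5A libraries averaged to 1, because their chi-square per gene was 0 over genes with at least 10 reads in the pair. The smallest value was 1.873 for a pair in H3.3 and 2.311 in GFP. Of the H3.3 libraries, 5 were from ZT0, 6 each from ZT4 and ZT20, 7 each from ZT8 and ZT12, and 8 from ZT16. They came from 3 cohorts. Cohort 1 gave 4 libraries at every ZT and 24 in all, cohort 2 gave 10, and cohort 3 gave 5, none of them at ZT0 or ZT20.

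The mammalian clock is a feedback loop in which the activators CLOCK and BMAL1 (encoded by Clock and Arntl) drive genes that carry E-box sequences, among them Per1 to Per3, Cry1, Cry2, Nr1d1 and Dbp. The PER and CRY proteins repress the activators, and NR1D1 represses Arntl, so that Arntl runs out of phase with Dbp and Nr1d1. The TMN holds the histamine neurons of the brain, which fire during waking and are silent in sleep, and histamine is made there by histidine decarboxylase (Hdc). H3.3 is the histone H3 variant that neurons put into chromatin after they stop dividing.

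The promoters below belong to 3 genes whose exons carry reads discussed in the next paragraphs, and they are shown because CLOCK and BMAL1 act through E-boxes. Each is the 250 bases before a RefSeq start of the gene in GRCm38.p6, with any CACGTG in capitals. Per1 had 2 RefSeq starts, and only the first by coordinate was used. Dbp, the PAR bZIP factor that drives clock output, lies at chr7:45704997-45705246 on the plus strand. Sgsh, a lysosomal sulfatase, lies at chr11:119355511-119355760 on the minus strand. Per1, a repressor of the loop, lies at chr11:69098699-69098948 on the plus strand.
Dbp: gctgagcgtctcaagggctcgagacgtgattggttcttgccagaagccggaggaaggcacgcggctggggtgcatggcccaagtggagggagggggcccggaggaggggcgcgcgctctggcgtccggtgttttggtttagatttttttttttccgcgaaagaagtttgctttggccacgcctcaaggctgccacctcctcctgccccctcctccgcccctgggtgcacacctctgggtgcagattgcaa
Sgsh: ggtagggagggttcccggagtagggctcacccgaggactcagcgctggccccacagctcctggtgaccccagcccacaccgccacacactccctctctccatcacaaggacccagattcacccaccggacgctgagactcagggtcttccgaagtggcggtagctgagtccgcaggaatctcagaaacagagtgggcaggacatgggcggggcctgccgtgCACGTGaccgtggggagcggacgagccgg
Per1: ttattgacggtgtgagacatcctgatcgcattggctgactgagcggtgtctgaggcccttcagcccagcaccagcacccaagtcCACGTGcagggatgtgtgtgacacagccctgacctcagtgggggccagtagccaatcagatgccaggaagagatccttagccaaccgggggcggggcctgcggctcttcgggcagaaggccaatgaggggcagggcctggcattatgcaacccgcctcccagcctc
The letters CACGTG, which read the same on both strands, began 29 bases before the Sgsh start and 166 bases before the Per1 start used here. They were not in the Dbp window. They occurred in 6.02% of 32851 promoter windows of this length. A match is a description of the letters and not of binding.

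The deposited values were whole read counts per gene name, and 875500 to 1902572 of them per library (median 1302532) fell in gene rows. A permutation test of the F statistic of log10 depth over ZT (2-sided, 100000 resamples) gave p = 0.606 over the 39 libraries and p = 0.0420 within the 24 of cohort 1. The reads had been counted on the strand of the gene, whereas the first read of this kind of kit runs against the transcript, and 3.49% to 5.18% of uniquely placed reads were in gene rows. Rows whose exons overlap an exon of a gene on the other strand made up 19.9% of annotated names and held 68.3% to 86.4% of the annotated counts in a library. A row is therefore named here by its deposited gene, and for some rows the gene on the other strand is named beside it. Other rows described below also have an annotated partner. Among them are Fat1 (Gm2366), Rora (Gm15511), Slc1a2 (Gm13872), Arntl (Gm45355) and H2-T22 (A930015D03Rik). By the orientation of the kit given above, a read counted in a row would come from a transcript of the other strand, that of the partner. The counts alone do not show this, and it was not tested.

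By its medians, the Sphk2 row rose from ZT4, was highest at ZT12 and was lowest at ZT20. Sphk2, a sphingosine kinase (chr7:45709467-45718002, minus strand), overlaps 539 exon bases of Dbp at chr7:45709665-45710203, and also overlaps exons of the ribosomal gene Rpl18. In CPM (counts scaled to a common library size, here with TMM factors), the 5 libraries at ZT0 held 382, 394, 500.4, 505 and 583, and those at ZT4 ran from 422 through a median of 492 to 836. At ZT8 the lowest, median and highest were 497, 763 and 1110, and at ZT12 they were 847, 973 and 1441. By ZT16 the range was 428 to 1222 (median 562) and at ZT20 it was 312 to 563 (median 422). Every ZT12 library was above every library at ZT0, ZT4 and ZT20, whereas ZT8 and ZT16 overlapped with ZT12. A 24 h cosinor gave a log2 amplitude of 0.62 ± 0.09 (SE) and a peak at ZT10.5 ± 0.54 h (edgeR quasi-likelihood adjusted p = 0.000547, over 11366 genes). ZT as a factor gave an adjusted p of 0.00310. The Sphk2 row was called in each of 39 fits that left out 1 library (largest adjusted p = 0.00338), and its amplitude was 0.33 with a peak at ZT10.6 in GFP and 0.29 with a peak at ZT10.8 in Q5A (unadjusted p = 0.0106 and 0.00836). Against ZT0, the ZT12 level was higher by 1.16 ± 0.24 on the log2 scale, which did not pass the adjustment over genes (adjusted p = 0.168).

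The row of Thra, the thyroid hormone receptor alpha (chr11:98740638-98769006, plus strand), overlaps 263 exon bases of Nr1d1, the clock repressor on the other strand. Its CPM ran from 291 to 452 at ZT0 (median 327), 408 to 614 at ZT8 (median 449), 391 to 575 at ZT12 (median 481) and 290.2 to 371 at ZT20 (median 337). All ZT8 and ZT12 libraries were above all ZT20 libraries, and the ZT0 libraries overlapped with all 3 times. Its cosinor amplitude was 0.28 ± 0.07 with a peak at ZT9.77 ± 0.88 h, and the adjusted p of 0.0620 missed the threshold. It was called in 4 of 11 other settings, which were cohort as a factor, the replicate block, cohort 1 alone and DESeq2 (smallest adjusted p = 0.0188), and not without the 4 ZT20 libraries of cohort 1 (adjusted p = 0.932). JTK_CYCLE, a rank test against cosine templates used by the study, gave an adjusted p of 4.38e-05 within the gene and a q over genes of 0.0765. In GFP and Q5A the fitted peaks were ZT8.19 and ZT7.72.

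**Figure D1:**
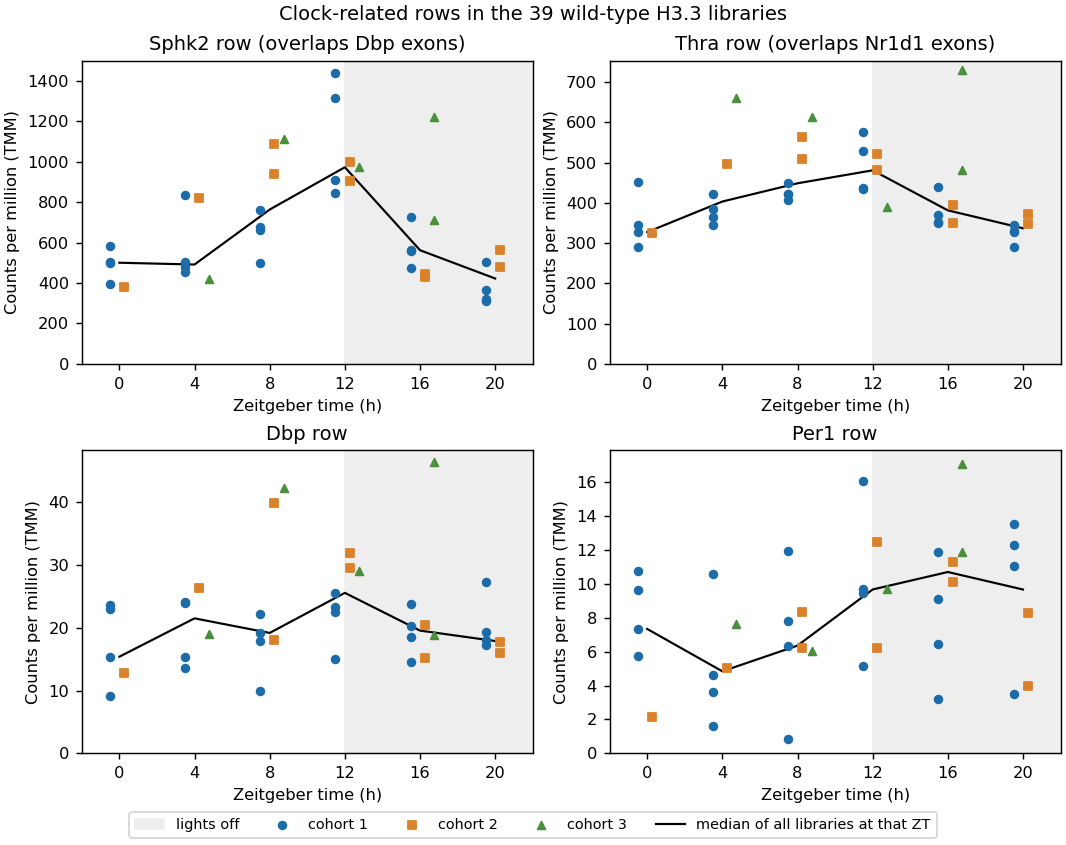
CPM (y axis, TMM scaled, linear) against zeitgeber time (x axis, h) for the Sphk2, Thra, Dbp and Per1 rows. Each point is 1 of the 39 wild-type H3.3 libraries, coloured by cohort and shifted sideways for clarity, the line joins the medians at each ZT, and grey marks lights off. The Sphk2 medians rise from 492 at ZT4 to 973 at ZT12 and are at 422 at ZT20.

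Of 20 core clock and clock output genes, 15 passed the filter on low counts and 2 were called by the cosinor, against 89 of 11366 genes overall (0.783%). At an unadjusted p under 0.05 there were 4 of 15, against 19.2% of all genes. The called pair, Rora, a nuclear receptor that activates Arntl, and Hlf, a PAR bZIP factor related to Dbp, were both highest at ZT20 and are described with the ZT20 genes below. Per1 ran from 1.60 to 10.6 CPM at ZT4 (median 4.84) and from 3.19 to 17.1 at ZT16 (median 10.7), and the ranges overlapped. Its fitted peak was ZT15.7 ± 1.70 h with an amplitude of 0.36 ± 0.16 (adjusted p = 0.214). The Nr1d1 row, which overlaps Thra, peaked at ZT8.98 (adjusted p = 0.172), and leaving out the 4 ZT20 libraries of cohort 1 gave an adjusted p of 0.973. The deposited Dbp row ran from 9.15 to 46.4 CPM over all libraries, with a peak at ZT11.1 ± 1.58 h (adjusted p = 0.288).

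The other loop genes gave values with wide errors. Clock, the activator, had an amplitude of 0.20 ± 0.10 and a peak at ZT10.2 (adjusted p = 0.313), and its partner Arntl 0.25 ± 0.18 at ZT18.4 (adjusted p = 0.465). Per2 and Per3 had peaks at ZT15.7 and ZT12.5 (adjusted p = 0.725 and 0.645) and Nr1d2, the paralogue of Nr1d1, at ZT18.4 (adjusted p = 0.417). JTK_CYCLE gave Clock an adjusted p of 0.00200 within the gene at a period of 16 h (q over genes of 0.220), and its ZT12 level was above that at ZT0 by 0.51 ± 0.21 on the log2 scale (edgeR adjusted p = 0.857). For the other 4 genes the JTK adjusted p ran from 0.563 to 1. Cry1, Npas2, Rorb and Nfil3 did not pass the filter, with 76 to 175 reads each in all 39 libraries together.

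Over all genes, 89 of 11366 had a 24 h cosinor (0.783%) and 61 varied over ZT as a factor (0.537%), with 39 in both. The cosinor amplitudes of the 89 ran from 0.31 to 1.93 on the log2 scale with a median of 0.58, against a median of 0.19 over all genes tested. Their peaks were uneven: 55 fell between ZT20 and ZT24, 15 between ZT16 and ZT20, 13 between ZT8 and ZT12, 5 between ZT4 and ZT8, 1 between ZT0 and ZT4 and none between ZT12 and ZT16. Of all genes tested, 24.1% had their fitted peak between ZT20 and ZT24 and 8.98% between ZT12 and ZT16.

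**Figure D2:**
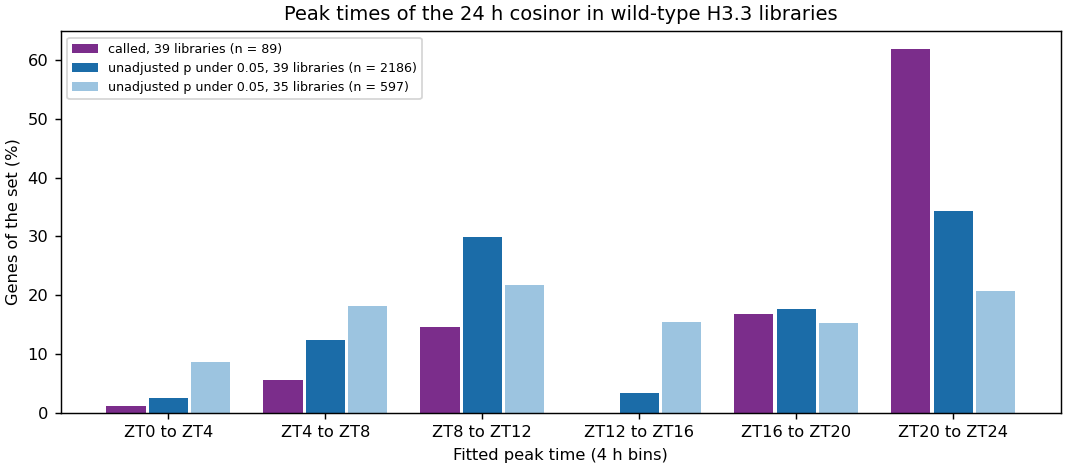
Share of genes (y axis, % of each set) by fitted peak time of the 24 h cosinor (x axis, bins of 4 h) in the wild-type H3.3 libraries, for the 89 called genes, the 2186 at an unadjusted p under 0.05, and the 597 at an unadjusted p under 0.05 once the 4 ZT20 libraries of cohort 1 were left out. Of the called genes 61.8% peak between ZT20 and ZT24, and of the 597 genes 20.8% do.

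The times 12 h apart differed unequally. At ZT20 against ZT8, 358 genes differed (3.15%), of which 253 were higher (2.23%) and 105 lower (0.924%) at ZT20, with a median log2 difference of 0.03 over all genes and 23.2% of genes at an unadjusted p under 0.05. Neither ZT12 against ZT0 nor ZT16 against ZT4 gave a call in edgeR. At an unadjusted p under 0.05 they gave 651 genes (5.73%) and 481 genes (4.23%), and DESeq2 called 3 and 0. The smallest p for ZT12 against ZT0 were those of Sphk2 and of Pitpnm2, a phosphatidylinositol transfer protein, whose log2 difference was 0.80 ± 0.17 (adjusted p = 0.168).

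The leading genes at ZT20 against ZT8 were higher in the 4 ZT20 libraries of cohort 1 than in the 2 of cohort 2. Prkcd, a protein kinase C that is abundant in thalamic neurons, held 27.8, 88.4, 96.2 and 138 CPM in the 4 libraries, 1.18 and 3.95 in the pair from cohort 2, and 0 to 30.8 (median 1.94) in the 33 libraries of the other times. Plekhg1, a guanine nucleotide exchange factor, held 7.12, 24.7, 31.8 and 37.8 CPM in the 4, 4.94 and 7.09 in the pair, and 0 to 10.01 elsewhere. At ZT8 alone, Plekhg1 ran from 0 to 2.01 CPM (median 0.851), below both libraries of the pair. Prkcd at ZT8 ran from 0 to 1.70 CPM (median 0.909), which overlapped with the pair. For both genes the pair from cohort 2 lay within the range of the other times, while 3 of the 4 cohort 1 libraries were above all of them. In the cosinor, Prkcd had an amplitude of 1.93 ± 0.44 and a peak at ZT19.8 ± 0.79 h (adjusted p = 0.00208), and Plekhg1 1.35 ± 0.28 at ZT20.8 ± 0.72 h (adjusted p = 5.6e-05, and called in all 35 of the fits without 1 library in which it passed the filter). Without the 4 libraries the amplitudes were 0.61 and 0.71, with adjusted p of 0.973 and 0.912.

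Several other leading genes had the same split. Rasgrp1, a Ras activator, ran from 21.4 to 74.8 CPM in the 4 libraries and was 4.14 and 5.92 in the pair, and Adarb1, an RNA-editing deaminase, ran from 75.7 to 187 and was 37.8 and 45.4. Adcy1, a calcium-stimulated adenylyl cyclase, ran from 41.4 to 119 and was 9.46 and 28.6, Plcb4, a phospholipase C of thalamic and cerebellar neurons, ran from 38.2 to 144 and was 21.9 and 25.7, and Kcnc2, a fast potassium channel subunit, ran from 20.1 to 46.5 and was 4.14 and 11.8. Rora ran from 10.35 to 44.2 and was 2.96 in both of the pair, and Hlf ran from 12.3 to 43.5 and was 9.87 and 10.05. In each of these genes the lowest of the 4 was above both cohort 2 libraries. Their cosinor peaks lay between ZT19.4 (Rasgrp1) and ZT21.6 (Plcb4), and without the 4 libraries none was called. Rora then had an adjusted p of 0.984 and Hlf of 0.972. Mob4, also called at ZT20 against ZT8, did not split in this way. It held 4.53, 10.2, 15.9 and 19.2 CPM in the 4 libraries, 8.275 and 9.87 in the pair, and 0 to 8.88 at the other times.

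**Figure D3:**
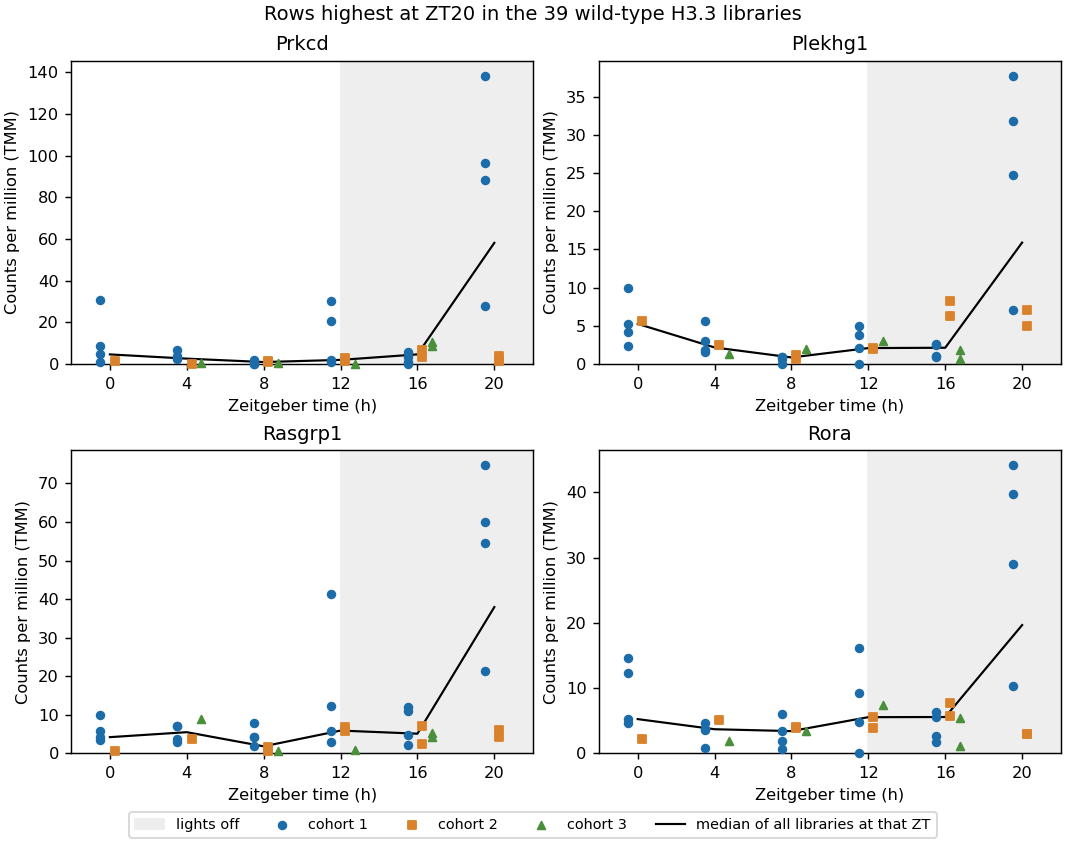
CPM (y axis, TMM scaled, linear) against zeitgeber time (x axis, h) for Prkcd, Plekhg1, Rasgrp1 and Rora. Each point is 1 of the 39 wild-type H3.3 libraries, coloured by cohort and shifted sideways for clarity, the line joins the medians at each ZT, and grey marks lights off. At ZT20 Prkcd is at 27.8 to 138 in the 4 libraries of cohort 1, and at 1.18 and 3.95 in the 2 of cohort 2.

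A list of 12 genes known from thalamic neurons was drawn up after these values were seen, so its counts are a description. All 11 tested were higher at ZT20 than at ZT8, and 8 were called (Prkcd, Plekhg1, Tnnt1, Ramp3, Synpo2, Rora, Ntng1 and Slc17a7). Among all genes tested, 2.23% were called higher. The median log2 difference was 2.28 over the 11, against 0.03 over all genes. The summed level of the 12 was 177 to 564 CPM in the 4 libraries, 49.7 and 71.1 in the cohort 2 pair, and 23.3 to 314 in the 33 others, and none of the 12 rows was at 0 throughout. Other marker lists moved less, and not all in the same direction. The 5 tuberomammillary markers summed to 190 to 232 CPM in the 4, 86.3 and 113 in the pair and 81.7 to 229 elsewhere. Within that sum, Slc18a2 ran from 69.2 to 143 CPM in the 4 and was 37.5 and 43.2 in the pair. Hdc was at 0 to 2.59 CPM in the 4, 0.987 and 4.73 in the pair, and 0 to 27.2 elsewhere (median 3.08). In the same order, the 13 oligodendrocyte markers summed to 2247 to 4353, 1513 and 1564, and 1110 to 5193. The 11 astrocyte markers summed to 767 to 1482, 638 and 826, and 370 to 1178. The share of annotated counts in rows with an exon on the other strand was 68.3% to 80.2% in the 4 libraries, 78.8% and 83.4% in the pair, and 71.6% to 86.4% in the 35 libraries apart from the 4. The part of these differences in the ZT20 calls was not tested. In bulk tissue, more cells of a type and more RNA per cell cannot be told apart.

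Without the 4 libraries, 35 libraries and 12564 genes remained, and edgeR called no gene by the cosinor (597 at an unadjusted p under 0.05, 4.75%), by ZT as a factor (559) or at ZT20 against ZT8 (210). Sphk2 then had the smallest cosinor p, with an amplitude of 0.56, a peak at ZT10.8 and an adjusted p of 0.0574. Of the 89 genes, 87 were still tested, 65 had an unadjusted p under 0.05, 85 had a peak within 3 h of the first fit, and the median amplitude was 0.38. The 89 were chosen in the first fit and the 2 fits share 35 libraries, so these counts are a description. The 19 genes that peaked between ZT0 and ZT16 had a median amplitude of 0.48 in the first fit and 0.42 without the 4.

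Single libraries moved the count of cosinor calls by more than 1.5 times. Leaving out replicates 1, 2 or 3 of cohort 1 at ZT20 gave 27, 2 and 1 calls, and in the last of these Sphk2 was the 1 call. Leaving out replicates 1 or 4 of cohort 1 at ZT8 gave 42 each, replicates 1 and 2 of cohort 2 at ZT8 gave 36 and 26, and replicate 2 of cohort 2 at ZT16 gave 58. Higher counts came without replicate 1 of cohort 2 at ZT0 (138) or ZT20 (263), without the cohort 3 library at ZT4 (217), ZT8 (259) or ZT12 (168) or replicate 1 of cohort 3 at ZT16 (253), and without cohort 1 replicate 3 at ZT8 (252) or replicate 2 at ZT16 (169).

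**Figure D4:**
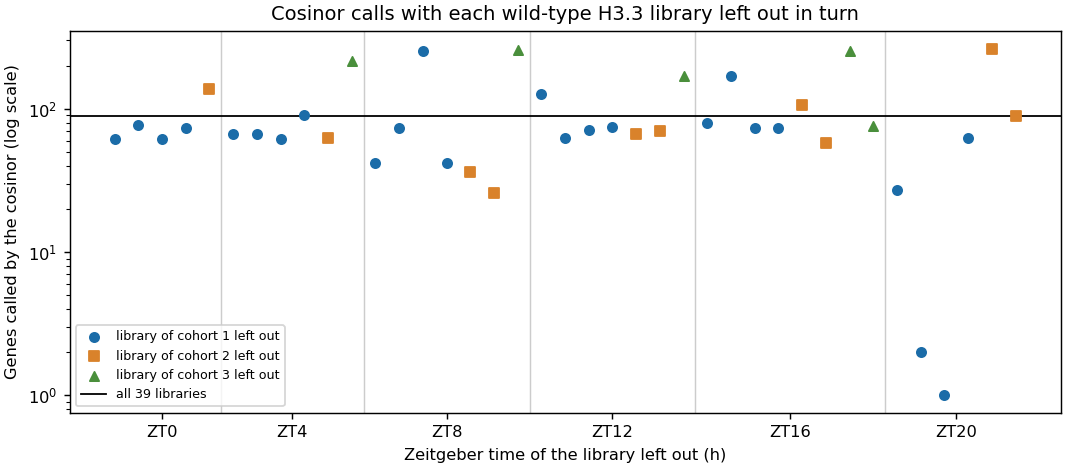
Number of genes called by the 24 h cosinor (y axis, log scale) when each of the 39 wild-type H3.3 libraries was left out in turn, ordered along the x axis by the zeitgeber time of that library and coloured by its cohort. The line marks the 89 calls with all libraries, and the lowest points, at 1 and 2, are ZT20 libraries of cohort 1.

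Of the 19 cosinor calls that peaked between ZT0 and ZT16, 14 were annotated, and 78.6% of these had a partner on the other strand. Among the 68 annotated calls that peaked between ZT16 and ZT24, 20.6% did. The rows that differed between ZT20 and ZT8 were counted in the same way. Of the 105 rows lower at ZT20 than at ZT8, 72 were annotated and 86.1% of these had an exon of a gene on the other strand, against 25.7% of the 237 annotated rows that were higher at ZT20 and 43.2% of all annotated rows tested. Card14, an innate immune scaffold of skin (chr11:119307768-119345375, plus strand), overlaps 955 exon bases of Sgsh. Its CPM ran from 95.5 to 141 at ZT0 (median 104), 145 to 205 at ZT8 (median 158) and 67.5 to 139 at ZT20 (median 84.2), so that ZT8 was above ZT20 in every library. The peak was ZT8.46 ± 0.69 h with an amplitude of 0.37 ± 0.07 (adjusted p = 0.0106). Without the 4 libraries the amplitude was 0.26 with the peak at ZT8.44 (adjusted p = 0.932).

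Pitpnm2 has no annotated partner, and its levels were lowest at ZT0 (22.9 to 36.2 CPM, median 31.5) and highest at ZT12 (45.7 to 64.3, median 54.3), without overlap between these times. Its amplitude was 0.31 ± 0.07 with a peak at ZT10.6 ± 0.82 h (adjusted p = 0.0425), and without the 4 libraries it was 0.36 with a peak at ZT10.4 (adjusted p = 0.593). Cd2bp2, a splicing factor subunit, was lowest at ZT4 (1.51 to 13.2 CPM, median 4.66) and reached 6.39 to 23.8 at ZT16 (median 12.3), and these ranges overlapped. Its peak was ZT17.1 ± 0.97 h (adjusted p = 0.0257), and its amplitude was 0.55 with all libraries and 0.54 without the 4 (adjusted p = 0.593).

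JTK_CYCLE called 948 genes (8.34%) at its adjusted p under 0.05, a correction for the templates tried on each gene alone. Corrected over genes as well (Benjamini-Hochberg q under 0.05), it called 2 (0.0176%), Card14 (q = 0.00484) and Spsb3 (q = 0.0229), a ubiquitin ligase adaptor whose row overlaps Eme2. The best template had a period of 24 h in 361 of the 948, 20 h in 362, 16 h in 84, 12 h in 137 and 8 h in 4. Of the 361, the peak was at ZT8 in 170 and at ZT20 in 132. Of the 89 cosinor calls, 76 were among the JTK calls, which is 85.4% of the former and 8.02% of the latter. Without the 4 libraries JTK called 337 genes (2.68%), of which 50 had a period of 24 h and 7 a 24 h peak at ZT8.

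Among the gene classes, histamine genes gave no cosinor call in 5 tested of 10 listed (1 at an unadjusted p under 0.05), and JTK called 1, which was Hdc. Hdc, which defines the TMN neurons, was at 0 in 5 of the 39 libraries and had 239 reads in all. Its CPM ran from 0 to 3.55 at ZT0 (median 0.875), 0.711 to 11.9 at ZT8 (median 6.71), 1.94 to 13.2 at ZT12 (median 3.72) and 0 to 4.73 at ZT20 (median 1.77). At ZT4 the Hdc CPM ran from 0 to 5.67 (median 1.37) and at ZT16 from 0 to 27.2 (median 3.68). ZT8, ZT12 and ZT16 had the higher medians and overlapped with every other time. The fitted peak was ZT11.8 ± 1.39 h with an amplitude of 0.82 ± 0.34 (adjusted p = 0.104), and JTK gave an adjusted p of 0.0433 within the gene and a q over genes of 0.557. Slc18a2, the vesicular monoamine transporter, was detected in all libraries at 25.4 to 148 CPM (adjusted p = 0.298).

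The histone genes and their handlers gave no cosinor call either, in 8 tested of 11 (1 at an unadjusted p under 0.05), and 1 JTK call. H3f3b, a gene that encodes H3.3, ran from 7.80 to 33.2 CPM (amplitude 0.14 ± 0.11, adjusted p = 0.640), whereas H3f3a and Tgm2, the transglutaminase that attaches monoamines to histone H3, did not pass the filter, with 192 and 193 reads in all. Atrx, a chromatin remodeller that loads H3.3, had an amplitude of 0.57 ± 0.16 at ZT22.2 (adjusted p = 0.0696). Of 15 genes of the H3K4 methyltransferase complexes, 12 were tested and 0 were called by the cosinor (2 at an unadjusted p under 0.05) and 1 by JTK. At ZT20 against ZT8 1 was called, Kmt2c, which was higher at ZT20 by 1.21 ± 0.32 (adjusted p = 0.0342) and by 1.06 without the 4 libraries (adjusted p = 1). Wdr5, a reader subunit of these complexes, did not pass the filter with 165 reads.

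Among neuronal signalling genes, those called at ZT20 against ZT8 were higher at ZT20. The share of all genes tested that was called higher was 2.23%. Of 35 tested GABA and glutamate receptor genes, 5 were called higher (Gabra4, Gria3, Gabrb2, Grin2b and Gabbr2, by 1.07 to 2.33). Of 50 potassium channel genes, 4 were called higher (Kcnc2, Kcnj9, Kcnd2 and Kcnma1, by 0.83 to 2.06). Among 8 genes of fast transmitter synthesis and transport, the vesicular glutamate transporters Slc17a6 and Slc17a7 were called higher, by 1.39 ± 0.35 and 1.81 ± 0.49. The medians of these lists were 0.57, 0.26 and 0.71 on the log2 scale, against 0.03 over all genes, and without the 4 libraries they were 0.14, 0.07 and 0.18 with no call. Of 12 tested heat shock and cold-inducible genes, 3 chaperone genes (Hspa5, Hsph1 and Dnajb1) were called higher, by 0.91 to 1.08. The median of the list was 0.70. These 3 differed by 0.49, 0.07 and 0.43 without the 4 libraries, with no call, and the median was then 0.13.

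Astrocyte markers had fitted peaks late in the night. All 11 astrocyte markers tested had a peak between ZT16 and ZT24, as 4969 of all 11366 genes did, and 2 were called by the cosinor. Aqp4, the astrocyte water channel, had an amplitude of 0.71 ± 0.18 at ZT20.8 (adjusted p = 0.0310), and Slc1a2, the glial glutamate transporter, 0.47 ± 0.11 at ZT20.6 (adjusted p = 0.0442). Without the 4 libraries the amplitudes were 0.47 and 0.24 with no call. None of 13 oligodendrocyte markers was called by the cosinor (4 at an unadjusted p under 0.05) and JTK called 2, and the smallest p was that of Ermn (amplitude 0.70 ± 0.21 at ZT21.1, adjusted p = 0.0820). In cohort 1 alone, whose 24 libraries include the 4, 6 of the 11 astrocyte and 8 of the 13 oligodendrocyte markers were called, where 8.21% of all genes were.

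Hypothalamic neuropeptides gave no call by the cosinor or JTK in 12 tested of 18 (4 at an unadjusted cosinor p under 0.05). Pmch, the precursor of melanin-concentrating hormone, ran from 0 to 48.5 CPM at ZT12 (median 13.6) and from 35.8 to 323 at ZT20 (median 70.6), and the ranges overlapped (amplitude 0.99 ± 0.34, peak ZT20.2, adjusted p = 0.123). Of 9 tested glucocorticoid-responsive genes none was called by either (3 at an unadjusted cosinor p under 0.05). Plin4, a lipid droplet protein, had the smallest p, with a peak at ZT12.4 and an amplitude of 0.47 ± 0.17 (adjusted p = 0.139). Immediate early genes gave no call by either in 6 tested of 18 (0 at an unadjusted cosinor p under 0.05). The remaining lists gave no cosinor or JTK call, with 9 tested members of the clock kinases and turnover genes, 9 of sterol synthesis, 6 of the microglial, 4 of the endothelial, 4 of the ependymal and tanycyte, 7 of the striatal and 3 of the pituitary markers. No read was counted for the 13 mitochondrially encoded genes. Of the large sets, 0 of 48 cytosolic ribosomal protein genes and 0 of 67 nuclear genes of oxidative phosphorylation were called by the cosinor (13 and 14 at an unadjusted p under 0.05). JTK called 6 and 1. At ZT20 against ZT8 only Rps28 and Rpl23a of these sets were called, both lower, by 0.72 ± 0.19 and 0.69 ± 0.20.

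The rhythm was compared with the other viruses. In fits of each virus alone, 696 of 12200 genes were called in GFP (5.7%) and 28 of 11706 in Q5A (0.239%), against 89 in H3.3. Of the 89, all were tested in GFP, where 38 had an unadjusted p under 0.05, 36 a peak within 3 h and 15 both, and the median amplitude was 0.28. In Q5A 87 were tested, 14 had an unadjusted p under 0.05, 19 a peak within 3 h and 4 both, with a median amplitude of 0.21. The fitted peaks of the genes of late peak lay a median of 3.59 h in GFP and 6.71 h in Q5A from those in H3.3. For those that peaked before ZT16 the medians were 2.49 h and 3.39 h, and this was a description with no test. At an unadjusted p under 0.05 were 28 of the 70 late genes in GFP and 9 of 68 in Q5A, and 10 and 5 of the 19 others. A peak fitted where there is little rhythm has no reliable time, so these medians do not show a shift.

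**Figure D5:**
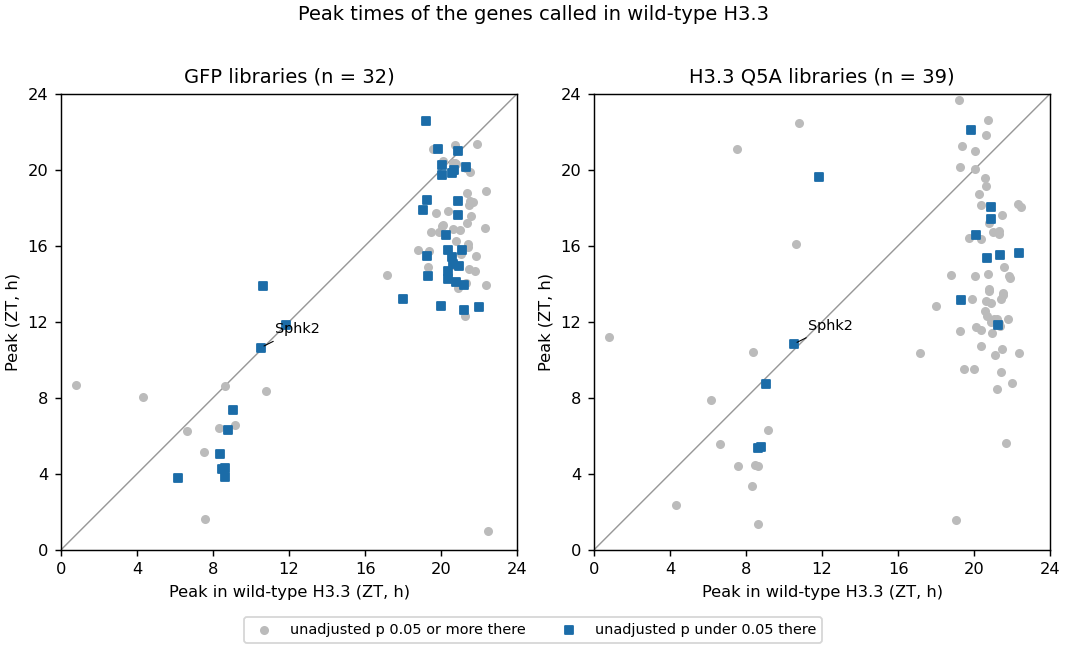
Fitted peak time in GFP (left) or H3.3 Q5A (right) libraries (y axes, ZT in h) against that in wild-type H3.3 (x axes, ZT in h) for the genes called in wild-type H3.3. Each point is 1 gene, blue squares have an unadjusted p under 0.05 in the other virus, and the diagonal marks equal times, so Sphk2 lies on it at ZT10.6 and ZT10.8.

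The difference between rhythms was tested as the interaction of virus with the cosinor. Against GFP it was called for 2 of 13264 genes (0.0151%). Fat1, a giant cadherin, peaked at ZT21.2 in H3.3 and ZT12.6 in GFP with amplitudes of 0.54 in both (adjusted p = 0.00338), and Mob4, a phosphatase complex subunit, peaked at ZT22.0 and ZT12.8 (adjusted p = 0.0195). In H3.3, Fat1 held 4.27 to 12.1 CPM at ZT8 and 10.05 to 35.6 at ZT20, which overlapped, and in the 4 libraries it ran from 11.1 to 35.6. Against Q5A the interaction was called for 32 of 12885 genes (0.248%), with 21.1% of genes at an unadjusted p under 0.05. These counts moved with the fit. Against Q5A there were 92 calls with cohort as a factor, 1640 in cohort 1 alone, 106 in DESeq2 and 1 with the replicate block, and against GFP 2, 1, 0 and 0. Cnbp, a nucleic acid binding protein, peaked at ZT21.3 in H3.3 and ZT9.78 in Q5A (adjusted p = 0.0151). Without the 4 libraries, 4 genes differed from GFP and 10 from Q5A, and without replicate 1 of cohort 1 at ZT12, which held 9295 CPM of a row with a clone-based name and no position here, 2 and 18 did.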

How the data were processed

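Polyadenylated RNA of TMN tissue was sequenced from a stranded ligation library. The authors aligned reads to GRCm38 with STAR 2.7.11b and summed reads over the exons of each gene name in HTSeq 2.0.5, with its strand option on (per the labels and the study's methods). What they deposited are raw counts in 1 table a library, each with 54087 names. The 5 rows of unassigned reads were kept out of library sizes and tests, and 18 tables that the labels tie to no sample were not used. Groups, cohorts and replicate numbers came from the labels.

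From these counts, edgeR 4.0.16 (R 4.3.3) was run with TMM, filterByExpr (minimum count 10, minimum total 15) and quasi-likelihood F tests, adjusted by Benjamini-Hochberg and called at an adjusted p under 0.05, on ZT as a factor or on the cosine and sine of 24 h. Contrasts 12 h apart came from the factor fit. The comparisons with other viruses used an interaction with virus. JTK_CYCLE was reimplemented with 20 templates of 8 to 24 h on counts divided by size factors. Alternatives were size factor (RLE) normalization, no filter, cohort or the replicate number as a term, cohort 1 alone, DESeq2 1.42.0, each library left out, and, chosen after seeing the data, leaving out ZT20 or its 4 cohort 1 libraries. The procedures were tested on simulated data.

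Named genes were the 10 of smallest p by cosinor and by ZT as a factor, the 5 of smallest JTK p, core clock genes, up to 3 of smallest p in each other list, Hdc, H3f3a, H3f3b, Tgm2 and Wdr5, the 3 of smallest p in each contrast and interaction, and rows overlapping core clock genes. List members called at ZT20 were named after their values were seen. The members and lists were chosen with earlier results of these data known, and the thalamic list after seeing these values. Coordinates are of GRCm38, where 28499 names matched, holding 64.5% of the H3.3 counts, and promoters are from RefSeq (GRCm38.p6). In the factor fit, p-values rest on the spread between animals of the same ZT, which includes differences between cohorts. In the cosinor that spread also holds any departure of the ZT levels from a cosine. JTK_CYCLE p-values come from ranks over all libraries.

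Replicate numbers were shared between ZT groups, but libraries of the same number did not deviate together in every pair of cohort 1 (median correlation -0.01 to 0.07) or of cohort 2 (0.03 and 0.14), so they were not treated as paired. In cohort 3 all 6 pairs of replicate 1 were over 0.1 (0.281 to 0.671), where the number and the cohort cannot be told apart, since it gave 1 further library.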

Additional observations from a re-analysis of the deposited data

Results flagged for a closer look

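In 186 groups of libraries (a gene at a ZT), the highest or lowest library was tested against the rest by Dixon's ratio, and 17 stood apart, where chance gives about 1 in 20. Replicate 1 of cohort 3 at ZT16 stood apart on the high side in the Sphk2 row (1222 CPM), the Thra row (730.1 CPM) and the Dbp row (46.41 CPM). In the same way Dbp was high in replicate 1 of cohort 1 at ZT20 (27.25 CPM), Hlf in the cohort 3 library at ZT4 (19.67 CPM), and Hdc in replicate 2 of cohort 2 at ZT16 (27.17 CPM). The H2-T22 row was low in replicate 1 of cohort 1 at ZT4 (22.69 CPM).

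Of the genes high at ZT20, replicate 1 of cohort 1 stood apart at ZT0 for Prkcd (30.8 CPM) and Adarb1 (76.22 CPM), at ZT12 for Rasgrp1 (41.21 CPM) and Adcy1 (54.27 CPM), and at ZT20 for Tnnt1 (40.88 CPM). Tnnt1 was at 1.804 CPM in replicate 2 of cohort 1 at ZT4, and Adarb1 at 69.78 CPM in the cohort 3 library at ZT4. Mob4 was at 5.685 CPM in replicate 3 of cohort 1 at ZT12. A row with a clone-based name and no position here was at 9295 CPM in replicate 1 of cohort 1 at ZT12 and at 838.2 CPM in replicate 4 of cohort 1 at ZT16, against a median of 138 over the 39 libraries.

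The 24 h rhythm of H3.3 differed from that of GFP in 2 genes and from that of Q5A in 32, by the interaction of virus with the cosinor in edgeR.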

How the results depend on the processing

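Counts are given here for the cosinor, ZT as a factor and ZT20 against ZT8, which were 89, 61 and 358. RLE normalization gave 77, 52 and 326. Without a filter they were 424, 533 and 271, and ZT12 against ZT0 then gave 36 and ZT16 against ZT4 gave 2. With cohort as a factor they were 521, 230 and 1097, in cohort 1 alone 867, 2027 and 2106 (with 1 at ZT12 against ZT0), and in DESeq2 272, 253 and 609 (with 3 at ZT12 against ZT0). Without the 4 ZT20 libraries of cohort 1 they were 0, 0 and 0, and with cohort as a factor as well 2, 0 and 0, where the 2 were Sphk2 (adjusted p = 0.0480) and Raxos1. Without ZT20 the first 2 were 0 and 0, and in cohort 1 alone without ZT20 they were 0 and 8. With the replicate block the counts were 690, 105 and 1089, and in cohorts 1 and 2 the replicate numbers did not pair the libraries. The causes of these changes were not tested, beyond the libraries or genes that each setting leaves out.

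For the interaction with GFP, called in 2 genes, there were 80 without a filter, 0 with the replicate block, 1 in cohort 1 alone, 4 without the 4 ZT20 libraries and 0 in DESeq2 (1874 at an unadjusted p under 0.05). With Q5A, called in 32, there were 242 without a filter, 92 with cohort as a factor, 1 with the replicate block, 1640 in cohort 1 alone, 18 without replicate 1 of cohort 1 at ZT12, 10 without the 4 ZT20 libraries and 106 in DESeq2. Other libraries were not left out in turn in these interaction fits. JTK_CYCLE called 2 at a q over genes and 337 without the 4 ZT20 libraries. Depth over ZT had p = 0.0420 in cohort 1 alone, by permutation.

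Leaving out 1 library at a time, the counts ran from 1 to 263 for the cosinor, 3 to 259 for ZT as a factor, 13 to 1291 for ZT20 against ZT8, 0 to 1 for ZT12 against ZT0, 0 to 0 for ZT16 against ZT4 and 629 to 1256 for JTK_CYCLE. The lowest came without replicate 3 of cohort 1 at ZT20 (replicate 2 for JTK_CYCLE), and the highest of the first 3 without replicate 1 of cohort 2 at ZT20. For ZT as a factor, 10 and 5 came without cohort 1 replicates 1 and 2 at ZT20, 34 to 40 without cohort 1 replicate 3 at ZT0, cohort 1 replicates 1, 2 or 4 or either cohort 2 library at ZT8, or cohort 1 replicates 1 or 3 at ZT16, and 99 to 139 without cohort 3 at ZT4 or replicate 1 of cohorts 2 or 3 at ZT16. For ZT20 against ZT8, 114 and 18 came without cohort 1 replicates 1 and 2 at ZT20, 78 to 217 without cohort 1 replicates 1, 2 or 4 or either cohort 2 library at ZT8, 847 without cohort 1 replicate 3 at ZT8 and 607 without cohort 3 replicate 1 at ZT16. For JTK_CYCLE, 631 came without cohort 1 replicate 3 at ZT20. No named gene that was called had its fitted peak moved by over 6 h in any setting. Few reads were counted in rows such as Per2 and Hdc, which held 254 and 239 over the 39 libraries. Only 3.49% to 5.18% of the uniquely placed reads of a library were in gene rows, counted on the strand of the gene. A low count in such a row therefore cannot be read as low expression of its gene.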

Other observations

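Raxos1, a non-coding row that overlaps Rax, a regulator of tanycytes, did not pass the filter with all 39 libraries. It was at 0 in 34 of them, and at 112 CPM in replicate 2 of cohort 2 at ZT12 and 87.2 CPM in replicate 2 of cohort 2 at ZT16. It was among the rows with an adjusted p under 0.05 for the interaction of H3.3 and Q5A with the cosinor (adjusted p = 0.0151). Ppp1r1b, a marker of striatal neurons, was at 272 CPM in replicate 1 of cohort 1 at ZT12, against a median of 7.69 over the 39 libraries, and the summed striatal markers reached 752 CPM at ZT12, against 43.0 to 175 at ZT16.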
